A study of Mus musculus with 5 samples.

Results

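Venous endothelial cells of the mouse heart were followed in single-cell RNA sequencing of 5 libraries. They were taken as barcodes with at least 3 UMIs (unique molecular identifiers, each standing for 1 captured RNA molecule) summed over Vwf, Nr2f2, Ackr1 and Selp. Further clauses asked for at least 2 UMIs of Cdh5 and Pecam1, no UMI of the endocardial genes Npr3 and Cytl1 or of the lymphatic genes Prox1, Mmrn1 and Ccl21a, and at most 1 UMI of the arterial genes Stmn2, Hey1, Gja4 and Gja5. Fewer than 5 UMIs of Cxcl9 and Cxcl10, at most 3 of Dcn and Col1a1 and at most 1 of Cd3e, C1qa and Cd79a were allowed. The rule found 131 cells among the 47319 barcodes of the series, or among 38337 barcodes with at most 10% mitochondrial UMIs. Control replicate 1 held 31 of them and control replicate 2 held 16, while the disease libraries (replicates 3, 4 and 5) held 32, 22 and 30.

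The study compared hearts of Ctla4+/+Pdcd1-/- mice (control, 4 mice, 2 libraries) with hearts of Ctla4+/-Pdcd1-/- mice (disease, 10 mice, 3 libraries), a model of the myocarditis caused by immune checkpoint inhibitors. By the series' design text every group lacked Pdcd1 and the groups differed in 1 allele of Ctla4, and no library came from wild-type hearts. Hearts were pooled, digested with enzymes and sorted for DRAQ5+DAPI- cells, that is, live cells with a nucleus. The sample labels count upward, from Pdcd1 to Pdcd3 and from DRAQ5 to DRAQ9, where the series' design text names Pdcd1 and DRAQ5 throughout. The labels used here give no age or strain and do not say which mice or sorting days went into which library, so p-values measure only the spread between libraries.

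Veins and venules are the part of the circulation where leukocytes usually leave the blood. Their endothelium holds the transcription factor Nr2f2, which keeps the arterial programme off, and stores von Willebrand factor (Vwf) and P-selectin (Selp) in granules that release them when the vessel wall is disturbed. Leukocytes then roll on selectins, are halted by chemokines on the vessel surface, and attach firmly to Vcam1 and Icam1 before they cross the wall.

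Promoters are shown for 3 genes that carry the results: Selp, the P-selectin gene of the membership rule, Vim, the gene that rose with disease, and Cxcl12, a chemokine gene that fell. Each sequence is the 250 bases before the start of the gene, from RefSeq in build GRCm38.p6, on the + strand, at chr1:164115014-164115263 for Selp, chr2:13574061-13574310 for Vim and chr6:117168285-117168534 for Cxcl12. Capitals mark matches on either strand to the NF-kappaB consensus, the motif of a factor that acts at many inflammatory genes, and where matches overlap they form 1 run.
Selp: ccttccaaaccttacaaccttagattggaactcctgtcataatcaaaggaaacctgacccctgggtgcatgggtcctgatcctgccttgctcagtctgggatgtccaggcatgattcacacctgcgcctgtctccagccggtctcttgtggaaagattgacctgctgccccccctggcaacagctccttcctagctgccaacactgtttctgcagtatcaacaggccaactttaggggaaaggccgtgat
Vim: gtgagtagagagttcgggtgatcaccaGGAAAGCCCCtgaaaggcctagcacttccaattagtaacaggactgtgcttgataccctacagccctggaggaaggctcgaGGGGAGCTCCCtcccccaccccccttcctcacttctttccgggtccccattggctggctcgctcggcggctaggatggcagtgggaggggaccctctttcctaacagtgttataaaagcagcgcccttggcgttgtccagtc
Cxcl12: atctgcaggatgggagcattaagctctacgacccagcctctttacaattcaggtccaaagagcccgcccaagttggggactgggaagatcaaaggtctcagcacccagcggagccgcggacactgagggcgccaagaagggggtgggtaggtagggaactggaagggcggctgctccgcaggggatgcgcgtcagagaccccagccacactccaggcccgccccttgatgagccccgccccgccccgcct
The Vim window held 3 matches in 2 runs, which began 223 and 142 bases before the start, and the Selp and Cxcl12 windows held none. Over all 32851 promoters in the table, 7.25% held a match in the same 250 bases. A match is a description of the letters and no binding was measured.

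The libraries held between 6465 and 11358 barcodes and between 24991704 and 55053988 UMIs. The members' summed UMIs were 133242 and 50713 in the controls and 145262, 71881 and 132693 in disease, so control replicate 2, with 16 cells, was the thinnest. The median member had 3853 UMIs. Of the targeted genes, Pdcd1 gave 2387 and 74 UMIs over all kept barcodes in the controls and 198, 13192 and 2886 in disease, although by the series' design text all mice lacked it. Ctla4 gave 1722 and 34 against 155, 8101 and 1901. The counts do not show which part of a transcript was read, so they do not check the knockout. The libraries also differed in how many cells held these RNAs: 510 cells of control replicate 1 but 14 of control replicate 2 had a Ctla4 UMI, and 72 of disease replicate 3. Control replicate 1 therefore had more Ctla4-bearing cells than disease replicate 3. Over the members, Ctla4 and Pdcd1 gave 1 UMI each. Barcode sequences recurred between libraries for 782 barcodes, 4 members had a barcode that also occurs in another library, and no 2 members shared one.

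Vwf carried most of the choice of members. It gave 74.3% of the UMIs counted by the venous clause. Vwf with Nr2f2 marked 56 cells, Vwf alone 31 and Nr2f2 alone 16, and a Selp or Ackr1 UMI was present in 28. Ackr1, a chemokine scavenger of small venules, gave 2 UMIs over all members. The median cell had a sum of 5 and the highest a sum of 47. At the threshold, 39 members had a sum of exactly 3 and 82 cells just outside had a sum of 2. Vcam1, which the rule does not use, stood at 379 CPM (UMIs scaled to a common total of 1e6 per sum) in the summed cells with a sum of 3 and at 253 CPM in those with a sum of 2, against 22.2 CPM in capillary-type cells (7412 cells that met every other clause and had none of the 4 venous genes). Of 509 barcodes that met the endothelial and venous clauses, the arterial clause removed 117 that met all others, the endocardial clause 26, the fibroblast clause 15, the lymphatic clause 9, the leukocyte clause 7 and the Cxcl9 and Cxcl10 clause 3. Those 3 cells were 2 of disease replicate 4 and 1 of disease replicate 5.

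Levels in venous against capillary-type cells are a description, because the rule made that contrast. Vcam1, the adhesion molecule that binds an integrin of leukocytes, stood at 503 and 138 CPM in the control libraries and 317, 709.5 and 459.7 CPM in the disease libraries, against 26.6, 14.5, 18.2, 36.6 and 21.2 CPM in capillary-type cells of the same libraries. It was higher in venous cells in every library, by 3.56 on the log2 scale on average (log2 of CPM + 10, as for the ratios that follow). At 2000 UMIs per cell, 49.5% of 109 venous cells had a Vcam1 UMI against 3.43% of 5104 capillary-type cells, with 22 and 2308 shallower cells left out, and the shares of all cells were 59.5 and 4.32%. Members were deeper than capillary-type cells, with medians of 3853 and 2604.5 UMIs.

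By the naming rule, 615 genes outside the membership rule were higher in venous cells in all 5 libraries. Among the 15 with the largest ratios were Prss23, Eln, Igfbp5, Vcam1, Cpe, Lrg1, Rasa4, Bgn, Lbp, Cysltr1, Hs3st1, Ptgs1, Cp and Sulf1. They include matrix genes (Eln, elastin, and Bgn, biglycan), genes of secreted plasma-type proteins (Lrg1, Lbp, the lipopolysaccharide-binding protein, and Cp, ceruloplasmin) and Ptgs1, a cyclooxygenase of prostaglandin synthesis. Prss23, a secreted serine protease, was at 407 ± 291 CPM (SD, n = 5 libraries) in venous cells and 6.37 ± 4.22 CPM in capillary-type cells. Eln was the steadier of these, at 318 ± 56.3 CPM against 12.7 ± 2.89 CPM. Il33, an alarm cytokine kept in the nucleus, had 36 UMIs in 22 members (16.8%) and was seen in 0.297% of capillary-type cells. Igfbp5 was uneven, since 53 of its 80 UMIs in control replicate 2 came from 1 cell.

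The 10 genes with the lowest ratios among the 520 that were lower in all 5 libraries were Gm12002, Alpl, Btnl9, Cldn5, Unc5b, Car4, Gja1, Rbp7, S100a9 and Aqp7. Car4, a carbonic anhydrase of capillaries, ranged from 59.2 to 158 CPM in venous cells and from 479 to 809 CPM in capillary-type cells. Claudin 5 (Cldn5), a tight junction protein, had 22 UMIs in all members and none in control replicate 2 or disease replicate 4. The arterial-leaning guidance receptor Unc5b had 1 UMI, and the arterial gene Sema3g had 2.

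**Figure D1:**
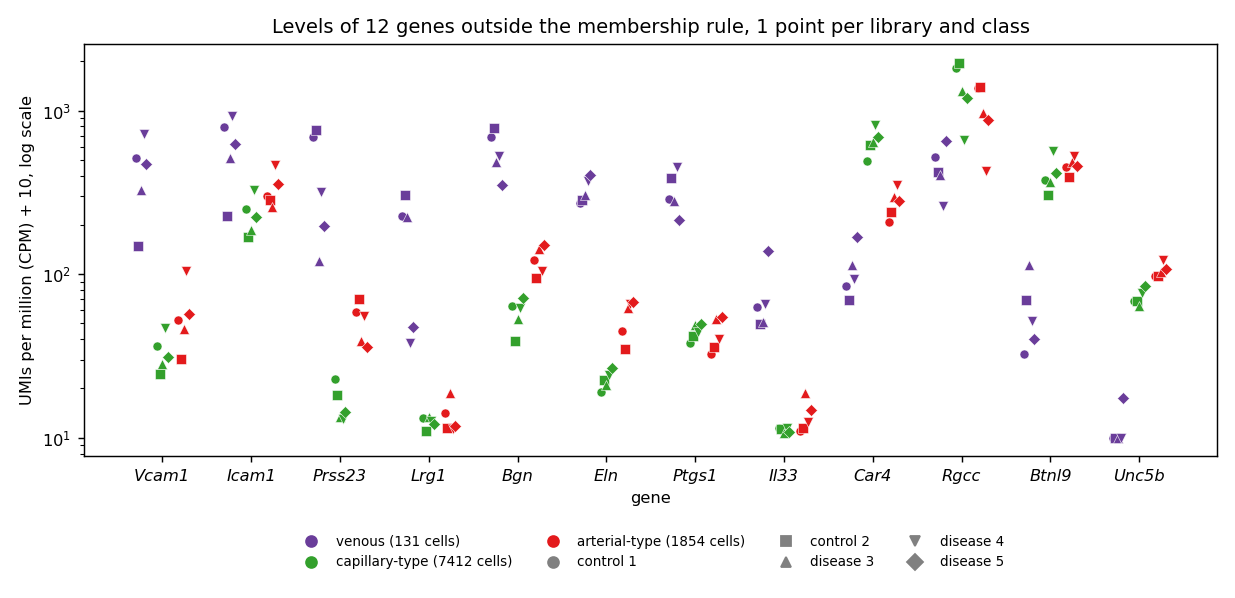
CPM plus 10 on a log axis for 12 genes outside the membership rule in venous (purple), capillary-type (green) and arterial-type (red) cells, with 1 point per library and a marker shape for each library. Vcam1, Prss23, Lrg1, Bgn, Eln, Ptgs1 and Il33 lie higher in venous than in capillary-type cells of every library, and Car4, Btnl9 and Unc5b lie lower. Arterial-type cells (1854 cells) had at least 3 UMIs of the arterial genes of the rule and met the other clauses, with no limit on the venous genes. They are shown without a comparison.

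The label was checked against markers that the rule did not use. Of 12 further venous markers, 8 were higher than in capillary-type cells in all 5 libraries, and of 12 capillary markers 8 were lower in all 5. Capillary transcripts were still abundant, with Fabp4, a fatty acid carrier, at 13172 to 22518 CPM in members and 22546 to 33462 CPM in capillary-type cells. Among the listed adhesion genes outside the rule, Sele, the inducible selectin, had 1 UMI and Madcam1 had none. Vcam1 and Icam1 were abundant, with 232 and 336 UMIs in 78 and 85 members. In the endocardial list Nrg1 and Gata5 were at 0, while Foxc1 had 27 UMIs and Nfatc1 23. Its 6 genes outside the rule summed to 135 and 316 CPM in the controls and 75.7, 41.7 and 98.0 CPM in disease, against 39.8 to 46.9 CPM in capillary-type cells. The 4 lymphatic genes outside the rule summed to 15.0 and 217 CPM in the controls and 62.0, 27.8 and 37.7 CPM in disease, against 40.8 to 54.2 CPM. Of the 217 CPM in control replicate 2, Lyve1, a hyaluronan receptor, gave 177, while Reln was at 0 in all members. The part of these RNAs in the results was not tested. In the platelet list, whose cells also hold Vwf and Selp, Gp9, Gp1bb and Treml1 were at 0, Pf4 had 17 UMIs and Itga2b 10. The summed level of that list was 105 and 19.7 CPM in the controls and 20.7, 27.8 and 60.3 CPM in disease.

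Some members carried RNA of other cells. Mural markers (9 genes of pericytes and smooth muscle, mostly Rgs5) summed to 1021 and 158 CPM in the controls and 1453, 376 and 656 CPM in disease, and 6 members had at least 10 such UMIs. One cell of disease replicate 3 had 5808 haemoglobin UMIs of its 9603. Leaving these cells out kept 124 members. Macrophage markers summed to between 118 and 278 CPM and T cell markers to between 0 and 139 CPM, highest in disease replicate 4, and in capillary-type cells of that library T cell markers were at 212 CPM. The part of these RNAs in the results was not tested beyond the fits without the mural and red cell RNA members. Doublet calling marked 1.32 to 4.12% of each library and none of the members.

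Members differed among themselves. The 28 with a Selp or Ackr1 UMI had Bgn at 1103 CPM (95% Poisson interval 921 to 1309.6, which covers counting error only) against 361 CPM (305 to 423) in the other 103. Within each of the 5 libraries the level was higher in the Selp or Ackr1 cells, at 1164 against 407, 891 against 754, 1141 against 219, 1134 against 375 and 785 against 297 CPM. Lrg1 was at 365 CPM (264 to 491) in them and 93.8 CPM (66.7 to 128) in the rest, and Il6st, the shared receptor of interleukin-6 cytokines, at 729.6 CPM (584 to 901) and 276 CPM (228 to 332). Of the capillary transcripts, Rgcc was at 221 CPM (144 to 323) and 536 CPM (468 to 611), and Car4 had 2 UMIs in 28 cells. These are pooled over libraries, which supplied 11 and 2 of the 28 cells in the controls and 9, 4 and 2 in disease. The values by library, those of Bgn among them, therefore rest on as few as 2 cells and few UMIs. Car4 was lower in the Selp or Ackr1 cells of every library, but Rgcc, Lrg1 and Il6st did not keep 1 order. In disease replicate 5 the Selp or Ackr1 cells had more Rgcc (785 against 627 CPM) and less Il6st (87.2 against 297 CPM), and in control replicate 2 they had less Lrg1 (178 against 310.4 CPM). The capillary gene Gpihbp1 was lower in them in both controls and disease replicate 3, but higher in disease replicates 4 (2193 against 1449 CPM) and 5 (2268 against 1773 CPM). The 16 cells chosen by Nr2f2 alone were the least venous in this respect, with Rgcc at 1018 CPM (803 to 1272), Bgn at 66.1 CPM (21.5 to 154) and Lrg1 at 1 UMI.

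The share of venous cells among endothelial cells that met every other clause was 1.88% in control replicate 1 (31 of 1646, exact binomial 95% interval 1.28 to 2.66%) and 0.918% in control replicate 2 (16 of 1743, 0.526 to 1.49%). In disease it was 2.12% (32 of 1508, 1.46 to 2.98%), 1.85% (22 of 1187, 1.17 to 2.79%) and 1.53% (30 of 1959, 1.04 to 2.18%). The means were 1.40% ± 0.683 (SD, n = 2) and 1.84% ± 0.296 (SD, n = 3), a difference of 0.435 percentage points, and the groups overlapped. The two-sided exact permutation test gave p = 0.6, where the smallest p the 10 splits allow is 0.1. Without control replicate 2 the difference was -0.0478 points, so its direction rested on that library.

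Disease was compared with control in the members' summed UMIs. Of 2769 genes tested, 56 (2.02%) had an adjusted p under 0.05 in edgeR's quasi-likelihood test with Benjamini-Hochberg adjustment, 1 higher in disease (0.0361%) and 55 lower (1.99%). Vim was the gene that rose, and the falls include the chemokine gene Cxcl12, the protease gene Prss23 and the class I antigen presentation genes H2-D1 and H2-K1, whereas Vcam1 and Icam1 did not pass the test. Libraries weighed heavily on the count: 9 genes were lower without control replicate 1, 28 without control replicate 2, 15 without disease replicate 5 and 89 without disease replicate 4. The rises were 0 without control replicate 1 or disease replicate 5 and 9 without disease replicate 4. In simulated data of the same depth, the test found 22.1% of genes changed by 1 on the log2 scale and 79.8% of those changed by 2.

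**Figure D2:**
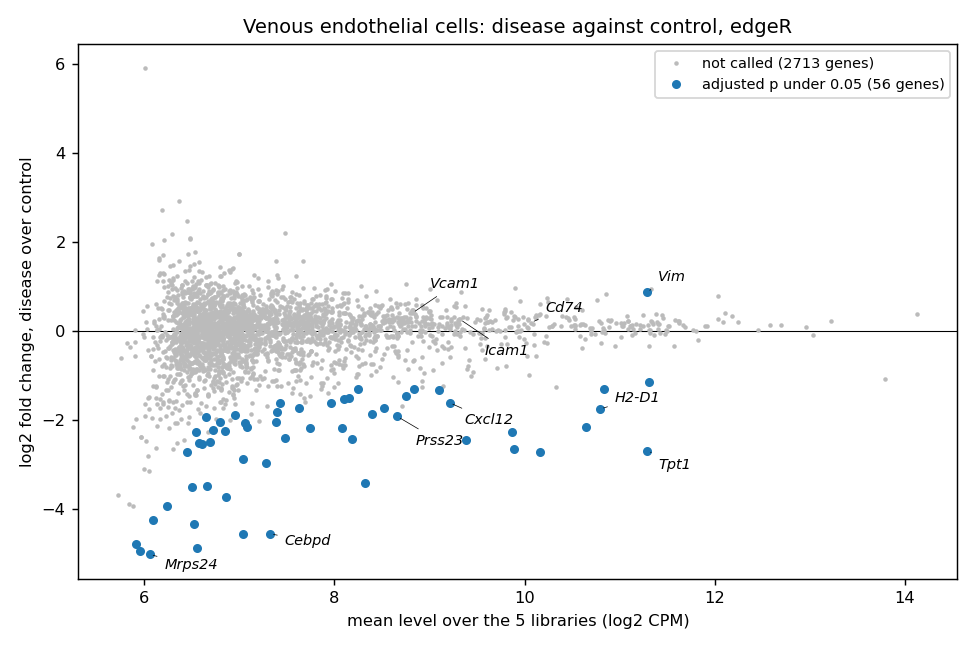
Log2 fold change of disease over control against the mean log2 CPM for the 2769 genes tested in venous cells, with the 56 genes of adjusted p under 0.05 in blue. The blue points lie below 0 except Vim, and Vcam1, Icam1 and Cd74 lie near 0.

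Adhesion genes were measured in 5 of the 7 listed genes outside the membership rule, and none passed the test. Vcam1 was higher in disease by 0.40 (SE 0.44) on the log2 scale with adjusted p = 0.807 in edgeR's test, and its control libraries, at 503 and 138 CPM, lay apart by more than the groups did. Icam1, the ligand of leukocyte beta-2 integrins, was at 781 and 217 CPM in controls and 503, 918 and 618 CPM in disease (log2 difference 0.26, SE 0.40, edgeR adjusted p = 0.869). The groups overlapped for both, and without control replicate 2 the log2 differences were -0.11 and -0.27. Selp, which belongs to the rule and has no test, was at 180.1 and 59.2 CPM in controls and 89.5, 83.5 and 22.6 CPM in disease. The median of the 5 adhesion genes was 0.25, against 0.03 over all genes tested. Vwf was at 1418 and 2031 CPM in controls and 1232, 1809 and 1055 CPM in disease, without a test.

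Vim, the intermediate filament protein vimentin of the endothelial cytoskeleton, stood at 1719 and 1518 CPM in the controls and 2719, 3353 and 3037 CPM in disease. All disease libraries lay above both controls, a rise of 0.87 (SE 0.17) on the log2 scale with edgeR adjusted p = 0.0211. The call was lost without control replicate 1 (adjusted p = 0.198), without control replicate 2 (0.239), without disease replicate 5 (0.121) and in DESeq2 (0.246). It was also lost under changed clauses of the rule: a venous minimum of 5 UMIs (edgeR adjusted p = 0.131), at most 5% mitochondrial UMIs (0.075) and no arterial UMI (0.272). In capillary-type cells the log2 difference was 0.30, with edgeR adjusted p = 0.198.

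Chemokines and other signals shown to leukocytes had 6 of 14 listed genes tested, all 6 lower, with a median of -0.42, and 1 of them, Cxcl12, passed the test. Over all 2769 genes tested 1305 were lower, the median was 0.03 and 2.02% were called. Cxcl12, which holds and directs leukocytes through Cxcr4, was at 818 and 1203 CPM in controls and 386, 278 and 301 CPM in disease, so the groups did not overlap. It fell by 1.62 (SE 0.27) on the log2 scale, with edgeR adjusted p = 0.0103. The p was 0.0625 without control replicate 1, 0.104 without control replicate 2 and 0.0991 without disease replicate 5, and with a venous minimum of 5, at most 5% mitochondrial UMIs and no arterial UMI it was 0.127, 0.0518 and 0.0736. In capillary-type cells Cxcl12 was at 2175 and 2397 CPM in controls and 897, 669.9 and 532 CPM in disease, and the difference between the changes in the 2 classes did not pass the test (edgeR adjusted p = 1). Csf1, the growth factor of macrophages, differed by -0.82 with an unadjusted p of 0.0919. Ackr1, Cxcl9 and Cxcl10 belong to the rule and Ccl2 had 6 UMIs in all.

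In the granule and clotting list 5 of 13 genes were tested, 2 higher and 3 lower with a median of -0.13, and Prss23 passed the test, beside 2.02% called and a median of 0.03 over all genes. Prss23 measured 683 and 749 CPM in the controls and 110.1, 306 and 188 CPM in disease, without overlap, and fell by 1.93 (SE 0.35) on the log2 scale with edgeR adjusted p = 0.0145. The p was 0.227 without control replicate 1, 0.064 without control replicate 2 and 0.144 without disease replicate 5. Prss23 also led the genes higher in venous than in capillary-type cells, and in disease it stayed above the capillary-type level of 3.05 to 4.29 CPM in the same libraries. In capillary-type cells Prss23 was at 13.0 and 8.17 CPM in controls, and it fell there by 1.59 on the log2 scale with edgeR adjusted p = 0.0216. The difference between the changes in the 2 classes did not pass the test. Thrombomodulin (Thbd), an anticoagulant receptor, was at 383 and 513 CPM in controls and 482, 417 and 520.0 CPM in disease. Ptgs1 was at 278 and 375 against 268, 445 and 203 CPM, with overlap.

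**Figure D3:**
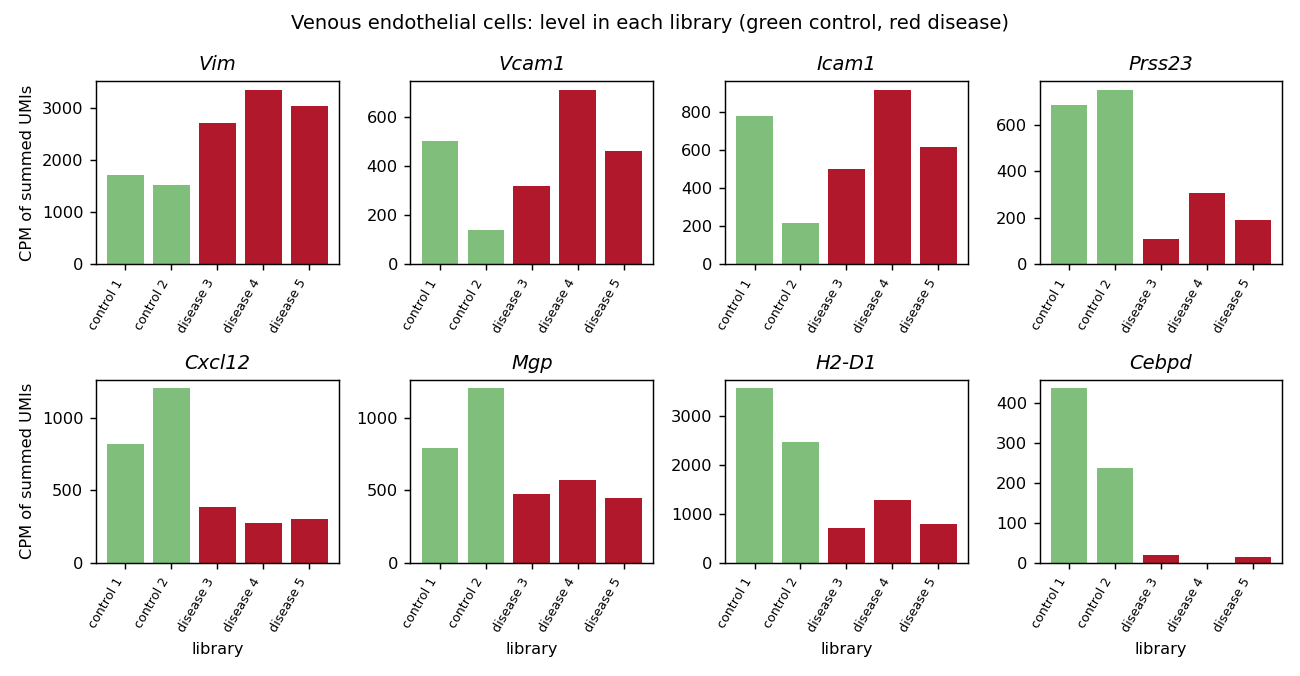
Bars give CPM of the members' summed UMIs for 8 genes in the 5 libraries, with controls in green and disease in red. Vim is higher and Prss23, Cxcl12, H2-D1 and Cebpd are lower in all disease libraries than in both controls, while Vcam1 and Icam1 overlap, and for Mgp the groups do not overlap but its p missed the threshold.

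Genes of venous identity and flow sensing had 13 of 15 tested, 8 higher and 5 lower with a median of 0.09, and none was called. Ephb4, the venous ephrin receptor, was at 285 and 177 CPM in controls and 275, 320.0 and 256 CPM in disease. The flow-responsive factor Klf4 was at 705 and 670.4 CPM in controls and 957, 1141 and 874 CPM in disease, above both controls in every disease library, with an unadjusted edgeR p of 0.0529. Nos3, the endothelial nitric oxide synthase, was at 248 and 296 CPM in controls and 138, 111 and 113 CPM in disease, a log2 difference of -1.13 (SE 0.32) and an unadjusted edgeR p of 0.00423. Neither passed the adjusted threshold. Nr2f2 was at 330.2 and 532 against 365, 417 and 384 CPM, and belongs to the rule.

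Interferon-gamma response and antigen presentation had 23 of 27 listed genes tested, 12 higher and 11 lower, with a median of 0.01, and 2 of them fell (8.70%, beside 1.99% of all genes that fell). H2-D1, a class I heavy chain, measured 3557 and 2465 CPM in the controls and 716, 1280 and 791 CPM in disease and fell by 1.76 (SE 0.25) with edgeR adjusted p = 0.0026. H2-K1 fell by 1.30 (SE 0.23) with edgeR adjusted p = 0.0131. Leaving out control replicate 1 gave an adjusted p of 0.19 for H2-D1 and 0.345 for H2-K1. Leaving out disease replicate 5 gave 0.0647 and 0.0989. With a venous minimum of 5 and with no arterial UMI, H2-K1 was at 0.097 and 0.125. Class I genes belong to a family of close relatives whose reads can be split between members, so these values are uncertain. B2m, the class I light chain, differed by 0.01 and Irf1 by -0.03 on the log2 scale. In capillary-type cells H2-D1 fell by 2.43 (edgeR adjusted p = 3.07e-04) and H2-K1 by 1.62 (edgeR adjusted p = 0.021). The members were selected for few Cxcl9 and Cxcl10 UMIs, so cells with the strongest response of these chemokines are not among them.

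Type I interferon genes had 10 of 14 tested, of which 9 were lower and 1 higher, with a median of -0.51, and none was called. Ifit1 differed by -1.62 and Isg15 by -0.85 with unadjusted edgeR p-values of 0.0183 and 0.026. Of the NF-kappaB feedback genes 3 of 11 were tested, all lower with a median of -1.13. Nfkbia, the inhibitor that NF-kappaB itself induces, was at 923 and 394 CPM in controls and 358, 278 and 317 CPM in disease. In capillary-type cells it differed by -1.71 on the log2 scale with edgeR adjusted p = 0.0168. In venous cells its difference passed no adjusted threshold over all 5 libraries. Without control replicate 2 its edgeR adjusted p was 0.0418.

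Immediate early genes, which also respond to tissue digestion, had 13 of 14 tested, 3 higher and 10 lower with a median of -0.30, beside 1305 of 2769 lower and a median of 0.03 over all genes tested. Atf3, a stress-induced repressor, was the 1 gene called (7.69% of the list, beside 2.02% of all genes), at 720.5 and 375 CPM in controls and 110.1, 139 and 226 CPM in disease. It fell by 1.86 (SE 0.37) with edgeR adjusted p = 0.0211, which was 0.463 without control replicate 1, 0.0795 without disease replicate 3, 0.0647 without disease replicate 5 and 0.187 with at most 5% mitochondrial UMIs. Fos differed by -0.10 and Egr1 by -0.38. Jund (-1.60), Junb (-1.27) and Dusp1 (-0.84) were below both controls in every disease library but were not called. Their unadjusted edgeR p-values were 0.0039, 0.00637 and 0.00429. An unadjusted p under 0.05 was found for 4 of the 13 tested, beside 12.3% of all genes. In capillary-type cells Atf3 fell by 2.29 with edgeR adjusted p = 0.00347. Clock and glucocorticoid genes had 7 of 15 tested, all higher with a median of 0.65 and none called. Dbp, a clock output factor, was at 67.5 and 0 CPM in controls and 220.3, 153 and 279 CPM in disease, and its call appeared with no filter on low counts (edgeR adjusted p = 0.00214), without members carrying red cell or mural RNA (0.0329) and once disease replicate 4 was left out (0.0162). The hour of collection is not in the labels used here, so time of day and genotype cannot be told apart for these genes.

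Fatty acid handling, a task of heart capillaries, had 6 of 10 genes tested, all higher with a median of 0.37 and none called. Lpl differed by 0.87 and Fabp4 by 0.37 on the log2 scale. Matrix genes had 9 of 12 tested, 6 higher and 3 lower with a median of 0.25 and none called. Mgp, the matrix Gla protein that limits calcification, was at 796 and 1203 CPM in controls and 475, 570.4 and 445 CPM in disease, without overlap (log2 difference -1.01, SE 0.26, edgeR adjusted p = 0.0706). Sparc, a collagen-binding protein, was at 841 and 808 CPM against 1494, 1224 and 1485 CPM, and leaving out disease replicate 4 brought its edgeR adjusted p to 0.0233. Among all 615 genes that were higher in venous cells, 513 were tested, and 1 rose and 10 fell, which is 2.14% beside 2.02% over all genes. Of the 15 with the largest ratios of venous over capillary-type level, 2 were higher and 13 lower in disease, with a median of -0.64 against 0.03 over all genes tested, and 1, Prss23, was called. An unadjusted edgeR p under 0.05 was found for 5 of the 15, and for 340 of all 2769 genes (12.3%). Over all genes 1464 were higher and 1305 lower in disease.

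The largest falls belonged to genes with other tasks. By the naming rule they were Mrps24, Scand1, Ccdc85b, Rnaset2b, Cox5a, Cebpd, Nenf, Dusp2, Snrpf and Ndfip1. Cebpd, a transcription factor of acute inflammation, was at 435 and 237 CPM in controls and 20.7, 0 and 15.1 CPM in disease, and fell by 4.57 (SE 0.53) on the log2 scale with edgeR adjusted p = 6.73e-04, or 0.267 without control replicate 1. Dusp2, a phosphatase that switches off mitogen-activated kinases, had 24 UMIs in controls and 2 in disease, a control level 22.8 times the disease level with a counting interval of 5.67 to 199. Its call was lost in DESeq2 (adjusted p = 0.0508), and in edgeR with at most 5% mitochondrial UMIs (0.0646), with no arterial UMI (0.0609), without control replicate 2 (0.2) and without disease replicate 5 (0.0647). Mrps24, of the mitochondrial ribosome, had 24 UMIs in controls and 1 in disease, a ratio of 45.6 (7.44 to 1877), and lost its call without control replicate 2 (edgeR adjusted p = 0.192) or disease replicate 5 (0.0647). Cox5a, a subunit of cytochrome oxidase, was at 240.2 and 394 CPM in controls and 0, 13.9 and 22.6 CPM in disease, with edgeR adjusted p = 0.0543 without control replicate 1 and 0.0886 with no arterial UMI. All 5 tested genes of a list chosen because earlier results of these data had them low in disease in every class were called here, which is no independent support.

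Further called genes were named after their values were seen. Tpt1, a growth-related translational protein, measured 5892 and 4141 CPM in the controls and 778, 876 and 731 CPM in disease, a log2 difference of -2.69 (SE 0.19) that was called under every alternative run. The endothelial transcription factor Sox18 was at 383 and 394 CPM against 75.7, 55.6 and 113 CPM, and lost its call without control replicate 1 (edgeR adjusted p = 0.166). Fth1, the ferritin heavy chain, was at 2484 and 2149 against 461, 320.0 and 271 CPM, and Rps2, of the ribosome, at 1921 and 1913 against 317, 320.0 and 286 CPM.

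In capillary-type cells the log2 differences were -2.96 for Tpt1, -2.39 for Sox18, -2.82 for Fth1 and -3.35 for Cebpd. Of the 55 genes that fell in venous cells, all but Cox6a1, Cox8a and Pdia5 were also lower there with an edgeR adjusted p under 0.05. Those genes had 0.0574, 0.0691 and 0.0699. The share of all genes called in capillary-type cells is not reported here. Of the 56 genes called in venous cells 1, Igfbp7, had a change that passed the test of a difference between the classes. In simulated data that test recovered 5% of differences of 1 and 52% of differences of 2 on the log2 scale, so smaller differences between the classes could be missed. The simulated differences lay only in genes that passed the filter in venous cells, so the shares do not cover the other genes tested. The GC content of the first 300 transcript bases had a Spearman correlation of -0.253 with the log2 fold change across 2746 genes, which are not independent replicates and share the same 5 libraries. Median GC was 63.8% in the 55 genes that fell and 58.0% in the others. With the GC trend removed in each library, 39 genes were lower and 2 higher, and the 10 largest falls of the naming rule kept their calls. The log2 differences moved little for Cox5a (-4.58 to -4.56), Cebpd (-4.57 to -4.29), Prss23 (-1.93 to -2.003) and Cxcl12 (-1.62 to -1.57), and Tpt1 went from -2.69 to -2.38. The part of base composition in these falls was not tested beyond that fit.

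The change in venous cells was then tested against the change in capillary-type cells of the same libraries. Of 10588 genes, 12 (0.113%) passed an adjusted p of 0.05 in edgeR's quasi-likelihood test, with 7 higher and 5 lower in venous cells, and DESeq2 called 0, with 394 genes at an unadjusted edgeR p under 0.05. Of the 7 higher genes 4 were haemoglobin genes, most of whose venous UMIs came from 1 cell of disease replicate 3. The counts fell to 1 higher and 1 lower without disease replicate 3, 3 and 1 without control replicate 2, 4 and 1 without disease replicate 5, and 1 and 4 without members carrying red cell or mural RNA. They were 7 and 7 without control replicate 1 and 7 and 8 without disease replicate 4. The class II antigen presentation genes Cd74, H2-Aa and H2-Ab1 were among them. Cd74, the invariant chain, was at 1103 and 789 CPM in venous control cells and 344, 2699 and 497 CPM in disease, against 520.1 and 153 CPM and 354, 1671 and 855 CPM in capillary-type cells. In the controls and disease replicate 4 the venous level was above the capillary-type level, and in disease replicate 5 it was below it. In disease replicate 3 the levels were close, at 344 and 354 CPM. The venous total of that library, 145262 UMIs, includes the 5808 haemoglobin UMIs of 1 cell, which lowers the CPM of other genes. The difference in log2 change was -1.64 (SE 0.27) with edgeR adjusted p = 1.83e-06, and 0.163 without control replicate 2.

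**Figure D4:**
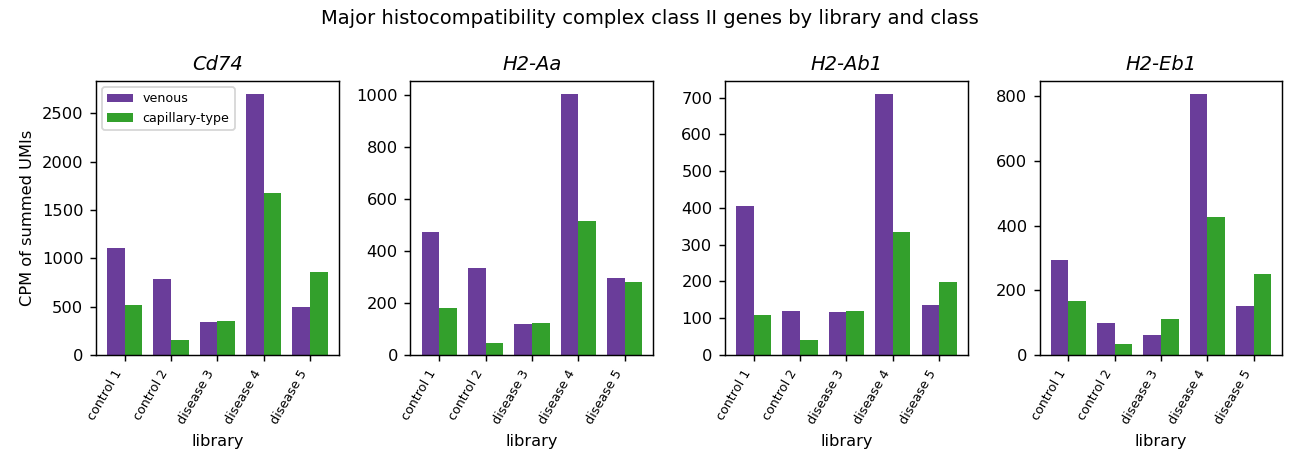
Bars give CPM of summed UMIs for 4 class II genes in venous (purple) and capillary-type (green) cells of each library. Venous bars are taller than capillary-type bars in both controls and in disease replicate 4, and about level with or shorter than them in disease replicates 3 and 5, where H2-Aa of replicate 5 is slightly taller.

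H2-Aa was at 473 and 335 CPM in venous control cells and 117, 1002 and 294 CPM in disease, and 181, 47.6, 123, 513 and 281 CPM in capillary-type cells in the same order. Its difference in change was -1.49 (SE 0.32, edgeR adjusted p = 0.0062), and the p was 0.995 without control replicate 2, 0.405 without disease replicate 3 and 0.0938 without disease replicate 5. H2-Ab1 differed by -1.60 (SE 0.35, edgeR adjusted p = 0.00742), with 0.954 without control replicate 1, 0.354 without disease replicate 3 and 0.364 without disease replicate 5. H2-Eb1 differed by -1.004 and did not pass. Within venous cells alone Cd74 differed between genotypes by 0.18 and H2-Aa by 0.02, which did not pass. Both values rested on disease replicate 4, without which they were -1.22 (edgeR adjusted p = 0.0117) and -1.06 (0.147), and without control replicate 2 they were -0.015 and -0.17. At 2000 UMIs per cell, 50.5% of venous and 38.05% of capillary-type cells had a Cd74 UMI, and 62.6% and 50.5% of all cells did. By library the thinned Cd74 shares were 75.9 and 27.3% of venous cells in the controls and 37.0, 73.3 and 33.3% in disease, against 53.2, 16.2, 21.3, 73.6 and 40.7% of capillary-type cells. For H2-Aa they were 55.2, 27.3, 18.5, 60.0 and 33.3% against 25, 6.14, 9.61, 42.8 and 20.3%. So H2-Aa was seen in a larger share of venous cells in all 5 libraries, and in disease replicate 3 the shares of both genes were larger in venous cells while the CPM were not. These shares rest on 29, 11, 27, 15 and 27 venous cells. With a venous minimum of 5 the differences in change were not called for Cd74, H2-Aa or H2-Ab1 (edgeR adjusted p = 0.0538, 0.526 and 0.156). Free RNA from other cells can reach every droplet, and its part was not tested.

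Mgp differed between the classes by -1.17 (SE 0.28, edgeR adjusted p = 0.0293). It was at 236 and 114 CPM in capillary-type control cells and 208, 201 and 177 CPM in disease, while it was lower in the venous cells of all disease libraries. Without control replicate 2 the difference was -0.54 with edgeR adjusted p = 0.995, without disease replicate 3 the p was 0.82 and without disease replicate 5 it was 0.0849. It was 0.108 with a venous minimum of 5 and 0.075 with no filter on low counts. Adm, the vessel-relaxing peptide adrenomedullin, had 0 UMIs in venous control cells, where a count of 0 allows up to 16.3 CPM over the group, and 11, 2 and 12 UMIs in the 3 disease libraries. Its pooled disease level was at least 4.38-fold higher than that floor, whereas capillary-type cells held 82.7 to 103 CPM in all libraries. The difference had edgeR adjusted p = 0.0317, which rose to 0.954, 0.389, 0.354 and 0.364 without control replicates 1 and 2 and disease replicates 3 and 5.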

How the data were processed

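Single-cell RNA of sorted mouse heart cells was captured with 10x Genomics 5' V1.1 chemistry. Values in the deposited matrices are unnormalized UMI counts, and Cell Ranger 3.1.0 wrote them, per the file headers. The submitters' processing notes name Cell Ranger 3, Seurat 3, mm10 and GRCh38 without roles. Members and gene lists were chosen with earlier results of these data known.

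Counts were summed per library over member cells. edgeR 4.0.16 (R 4.3.3; TMM scaling, filterByExpr, quasi-likelihood test) fitted disease against control over all genes, with Benjamini-Hochberg adjustment and a threshold of 0.05. A second fit with libraries as blocks tested class by genotype. Genes of the membership rule had no test. CPM is UMIs scaled to a total of 1e6, and ratios between classes use log2(CPM + 10). Both fits were tested on simulated data. Changes were placed in genes that passed the filter in venous cells, with 1 dispersion for all genes and no effect of library beyond its depth. Doublets were called per library with Scrublet in scanpy 1.11.5 and used only as an alternative. Thinning drew 2000 UMIs per cell. Alternatives were DESeq2 1.42.0, other scaling and filters, changed rule clauses and leaving out each library.

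Beyond the listed genes, the text names the 10 largest rises and falls that passed the threshold, averaged 5 log2 CPM or more and had groups without overlap. It names 5 genes each way from the class fit, and the 15 highest and 10 lowest venous ratios that kept 1 direction in all 5 libraries with at least 50 CPM. Cxcl11 was not among the gene names used here, and the 2 rows of Ccl21a were summed. Some genes that these rules select are not reported here.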

Additional observations from a re-analysis of the deposited data

Results flagged for a closer look

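The change with disease differed between venous and capillary-type cells for 12 genes by the test of that difference, and DESeq2 called none of them. The differences are given as the log2 change in venous cells minus that in capillary-type cells. They were -1.64 for Cd74, -1.49 for H2-Aa, -1.60 for H2-Ab1 and -1.17 for Mgp, whose values by library stand with the results.

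The haemoglobin genes gave 11.98 for Hba-a2, 11.51 for Hbb-bt, 6.03 for Hba-a1 and 3.78 for Hbb-bs. Hba-a2 and Hbb-bt had no UMI in venous controls, so the size of their fitted differences is set by the model's prior count and is no measure of the change. Against the 16.3 CPM that a count of 0 allows over the control group, their pooled levels in disease members were at least 32.1-fold and 197-fold higher, and most of these UMIs were in 1 cell of disease replicate 3. In venous cells Hba-a1 was at 0 and 19.7 CPM in controls and 2038, 0 and 0 CPM in disease, and that cell held 5808 haemoglobin UMIs. Without members carrying red cell or mural RNA, 1 gene was higher and 4 were lower. Adm gave 9.89, from 0 UMIs in control members and 25 in disease members, so this size too is set by the prior count, and the pooled disease level was at least 4.38-fold higher than the same limit.

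H19, a maternally expressed non-coding RNA, gave -7.28, where 27 of its 28 UMIs came from 2 cells of control replicate 2. Its pooled level in control members was 51.3 times that in disease members, with a counting interval of 8.46 to 2102. Timp4, an inhibitor of matrix metalloproteinases, gave 2.08. It was at 75.1 and 39.4 CPM in venous controls and 255, 55.6 and 234 CPM in disease, against 405 and 831 CPM and 592, 159 and 338 CPM in capillary-type cells. Its edgeR adjusted p was 0.995 without control replicate 2 and 0.49 without disease replicate 5. Igfbp7 gave 1.34: it was lower in disease in venous cells by 1.51 on the log2 scale and in capillary-type cells by 3.06, with an edgeR adjusted p of 0.995 without control replicate 2, 0.405 without disease replicate 3 and 0.679 without disease replicate 5. H19 had a mean level under the naming rule's minimum and Igfbp7 was not among the 5 largest rises, so both are given only because their difference passed the test, while Timp4 is named as one of the capillary markers.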

How the results depend on the processing

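Between 16 and 32 cells per library limit every value, and the counts of calls moved with most settings. For disease against control (1 higher, 55 lower) they were 0 and 27 in DESeq2, 15 and 98 with no filter, 2 and 51 with upper-quartile scaling, 1 and 18 with a venous minimum of 5, 2 and 59 with no limit on Cxcl9 and Cxcl10, 0 and 27 with mitochondrial UMIs at most 5%, and 2 and 22 with arterial genes at 0. Chosen after seeing the data, leaving out members with red cell or mural RNA gave 4 and 72, and removing the GC trend gave 2 and 39. Leaving out 1 library gave 0 to 9 higher and 9 to 89 lower. For the difference between classes (7 higher, 5 lower) the counts were 0 and 0 in DESeq2, 7 and 3 with no filter, 2 and 0 with a venous minimum of 5, 1 and 4 without members with red cell or mural RNA, and 1 to 7 and 1 to 8 without 1 library. The venous share difference ranged from -0.0478 to 0.918 points without 1 library and from 0.13 to 0.79 under the other settings. Log2 fold changes reversed for Vcam1 without control replicate 2 (-0.11), for Icam1 with a venous minimum of 5 (-0.23), arterial genes at 0 (-0.32), without control replicate 2 (-0.27) and without disease replicate 4 (-0.0081), for Cd74 without red cell or mural RNA (-0.20), control replicate 2 (-0.015) or disease replicate 4 (-1.22), and for H2-Aa without red cell or mural RNA (-0.14), with the GC trend removed (-0.098), without control replicate 2 (-0.17) or disease replicate 4 (-1.06). Without 1 library these ranged up to 1.83, 1.66, 0.62 and 0.50. The class difference reversed for Hba-a1 without disease replicate 3 (-5.99), with a venous minimum of 5 (-0.054) and without red cell or mural RNA (-6.51), for Hbb-bs without disease replicate 3 (-0.36) and without red cell or mural RNA (-0.99), and for Hba-a2 with a venous minimum of 5 (-0.07). Without 1 library Hba-a1 ranged up to 10.71 and Hbb-bs up to 5.85. The cause was not tested, apart from the haemoglobin genes, most of whose UMIs came from 1 cell. Of 389 checks of single genes in venous cells, 317 kept direction and side of the threshold, 55 lost the call, 5 gained it and 12 reversed, and of 117 checks of the class difference 62 kept both, 49 lost the call and 6 reversed. No paired analysis was possible because the groups share no replicate number.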
